A study of Mus musculus with 28 samples.

Results

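MPP3 are multipotent progenitors of the bone marrow whose output is mainly myeloid. Here 4 libraries of Dnmt3a-mutant MPP3 are compared with 4 libraries of control MPP3, all re-isolated from aged mice 4 months after transplantation, gene by gene and by lineage program. These 8 libraries are all the MPP3 libraries of aged recipients among the 28 samples of the series. They were taken by their labels (aged recipient, MPP3, either genotype). The comparison itself and the gene lists were chosen with earlier results of these data known. Shares of list genes set against all genes below therefore describe the lists and carry no test. CD45.1 recipients had been given marrow of young donors, which was Mx1-Cre for the controls and Dnmt3a-mutant, also written D3a-mut, for the others, and all 8 libraries carry this transplantation. Mx1-Cre is a recombinase transgene driven by an interferon-inducible promoter, which is active in blood cells and in other tissues. The labels used here describe neither the mutant allele nor the induction of Cre, and they do not say how MPP3 were sorted. The strain is given as C57BL/6, except for mutant replicate 4, where the label reads C57BL/7. Control replicates 1, 2 and 3 name 1 recipient each, while control replicate 4 and all 4 mutant libraries name 2 recipients each, so pooling of animals is not balanced between the genotypes. The titles name different recipients for different libraries. Whether the donors differed between libraries is not stated.

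Dnmt3a is a de novo DNA methyltransferase that adds methyl groups to CpG dinucleotides, and its loss or mutation in blood stem cells is a frequent event in clonal haematopoiesis, the expansion of a mutant blood cell clone with age. Progenitors leave the stem cell state along erythroid, megakaryocytic, myeloid and lymphoid paths. Erythroid differentiation depends on Gata1, Klf1 and signalling through the erythropoietin receptor, B-cell differentiation on Ebf1 and Pax5, and the plasma cell state on Irf4, Prdm1 and Xbp1. In these bulk libraries a different share of cells of a type and a different amount of RNA per cell cannot be told apart.

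The total count per library was 7601024 to 9050749 in controls and 5714211 to 10788237 in mutants. Mitochondrial genes held 15.5 to 24% of counts in controls and 14.4 to 25.9% in mutants. Over all genes, mutant replicate 1 stood apart from the other 7 libraries on the first principal component (23.4% of the variance) and mutant replicate 2 on the second (20.5%). Kit, which encodes the receptor used to gate early progenitors, was measured at 314 to 417 CPM (counts per mega counts of the scaled library) in controls and at 314 to 494 CPM in mutants. Of the other genes of the MPP3 gate, Cd48 ranged from 28.3 to 77.2 CPM in controls and from 28.4 to 59.3 CPM in mutants, and Flt3 from 74.1 to 181 CPM and from 29.6 to 127 CPM. Ptprc, which encodes CD45, was at 151 to 213 CPM in controls and 167 to 291 CPM in mutants. Slamf1, which encodes CD150, was at 6.75 CPM or less in all 8 libraries. Ly6a, which encodes Sca-1, was uneven, at 2.52 to 95.8 CPM in controls and 4.72 to 56.2 CPM in mutants.

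Dnmt3a transcript itself was measured at 118, 91.9, 112 and 111 CPM in control replicates 1 to 4, and at 113, 106, 61.3 and 133 CPM in mutant replicates 1 to 4. The genotypes overlapped, and the log2 difference between mutant and control was -0.06 (SE 0.37, edgeR quasi-likelihood test with Benjamini-Hochberg adjustment, adjusted p = 0.997). Since the allele is not described, the transcript level neither checks the labels nor goes against them.

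By edgeR's quasi-likelihood test on the 15 MPP3 libraries, the main test here, no gene passed the threshold of 0.05 on the adjusted p. Among the 13933 genes tested, 0 (0%) were called by that test, where the smallest adjusted p was 0.687, and 804 (5.77%) had an unadjusted p under 0.05, of which 455 were higher (3.27% of all genes) and 349 lower (2.50%) in mutants. The same genes gave 0 calls with limma voom and 56 calls (0.402%) with DESeq2, 30 higher (0.215%) and 26 lower (0.187%). The log2 estimates of these DESeq2 calls reached 27.8 on the higher side and -24.0 on the lower side. Estimates so extreme cannot be read as the size of a difference. Fitted on the 8 libraries alone, 3 of 12164 genes (0.0247%) were called by edgeR: Jchain, Igha and the variable segment Ighv1-64, all higher in mutants. CPM of the 4 mutants and the 4 controls did not overlap for 498 genes (3.57%), of which 197 (1.41%) were higher and 301 (2.16%) lower in mutants. With 4 libraries in each group some genes separate by the order of their values alone. A lack of overlap is therefore a description of a gene and not a test. The difference was positive for 52.9% of all genes and negative for 47.0%, with a median log2 difference of 0.05. Apart from Ighv1-64 and the genes given under other observations, genes described here that DESeq2 called were Cacna1e, Rasgrp3, Cd74, Rhbdf2, Pou2af1, Cd79a, Jchain, Hif1a, Prkcb and Xbp1 on the higher side and Rhag, Klf1, Myo1d, Stx17, Tmem56, Csf2rb2, Slc5a2 and Aldh2 on the lower side. Their adjusted p-values by DESeq2 included 0.000552 for Klf1, 0.00836 for Jchain and 0.0317 for Xbp1, and edgeR on the 15 libraries called none of them.

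The lowest list median was in the erythroid list. Of its 29 genes, 28 were in the fit, 25 were lower and 3 higher in mutants, and the median log2 difference was -1.04. In 10 of the 28 (35.7%, against 2.16% of all genes) the mutants lay below every control: Klf1, Rhag, Aqp1, Gfi1b, Epor, Samd14, Blvrb, Rhd, Trib2 and Car1. The median of Epor was 0 CPM in aged mutants, 0 in young controls and 0.127 in young mutants, and that of Samd14 0.168, 0.131 and 0.255 CPM. Both thus passed the low-count filter through the aged controls, where they are high. The share without overlap, the count of lower genes and the list median are partly set by that filter. An unadjusted p under 0.05 was reached by 7 lower genes (25% of the list, against 2.50% of all genes) and by 1 higher gene (3.57%, against 3.27%). The mean level of the list, in log2(CPM + 2), was 4.38, 4.33, 3.68 and 4.65 in control replicates 1 to 4 and 3.09, 3.18, 3.08 and 2.54 in mutant replicates 1 to 4. All mutants were thus below all controls.

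Klf1, a transcription factor that activates globin, red cell membrane and haem genes, was at 17, 9.26, 9.30 and 22.9 CPM in control replicates 1 to 4. In mutants it was at 0.131 CPM in replicate 1 and 0 in the other 3. That is 549 counts in all controls against 1 count in all mutants, a ratio of 448 after library scaling, with a 95% counting interval of 80.1 to 17729 that covers counting error only. By edgeR the unadjusted p was 5.96e-04 and the adjusted p 0.687.

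Erythropoietin receptor transcripts (Epor) were at 1.73, 30.0, 2.04 and 4.47 CPM in controls and at 1.31, 0, 0 and 0 CPM in mutants. The groups did not overlap, but the nearest values, 1.73 and 1.31 CPM, are close, and control replicate 2 is far above the other controls. Gfi1b, a repressor needed for erythroid and megakaryocytic development, was at 32.5, 19.5, 48.1 and 18.7 CPM in controls and 0.131, 3.37, 0 and 0 CPM in mutants (log2 difference -5.12, SE 1.96, edgeR adjusted p = 0.847). The lowest control, at 18.7 CPM, lay well above the highest mutant, at 3.37 CPM.

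The red cell membrane genes gave some of the widest separations. Rhag, which encodes the Rh-associated glycoprotein, was at 34.0, 26.6, 10.6 and 22.9 CPM in controls and at 0.784, 0, 0.336 and 0 CPM in mutants (log2 difference -6.32, SE 1.61, edgeR adjusted p = 0.687). Aqp1, the aquaporin-1 water channel, was even across controls at 32.9, 40.4, 33.8 and 34.4 CPM and was at 4.31, 0, 2.02 and 0 CPM in mutants (log2 difference -4.47, SE 1.59, edgeR adjusted p = 0.847). Rhd, the other Rh gene, was low throughout, at 1.47 to 3.38 CPM in controls and 0 to 0.672 CPM in mutants.

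Among erythroid enzymes, Blvrb, a biliverdin reductase, was at 11 to 29.6 CPM in controls and 0 to 3.86 CPM in mutants, and Car1, a carbonic anhydrase, at 140 to 436 CPM in controls and 110, 29.0, 0 and 0 CPM in mutants. Samd14 and the pseudokinase gene Trib2 were at 1.27 to 14.9 CPM and 3.97 to 10.4 CPM in controls and at 0 to 0.505 CPM and 0.0962 to 3.86 CPM in mutants. For Trib2 the nearest values, 3.97 and 3.86 CPM, are close. Car2 was at 178 to 268 CPM in controls and 28.9 to 225 CPM in mutants, which overlap.

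Globin transcripts did not separate the genotypes. Hbb-bs, an adult beta-globin gene, was at 187, 89.7, 26.7 and 178 CPM in controls and at 8.23, 92.8, 229 and 87.5 CPM in mutants. Hba-a1, Hba-a2 and Hbb-bt also overlapped, and as these genes have near-identical copies, their single values are uncertain. Gata1, the master erythroid regulator, was at 0 to 7.23 CPM in controls and 0 to 7.45 CPM in mutants, low in both and overlapping. Rhd, counted above among the genes without overlap, was also low, at no more than 3.38 CPM in controls. Tfrc, the transferrin receptor, ran the other way, at 48.8 to 193 CPM in controls and 138 to 456 CPM in mutants, which overlap. Hba-a1, Hba-a2, Hbb-bt, Gata1, Rag1, Blnk, Dntt, Foxo1 and Ikzf3 fall outside the rule for named genes and were chosen after their values were seen.

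**Figure D1:**
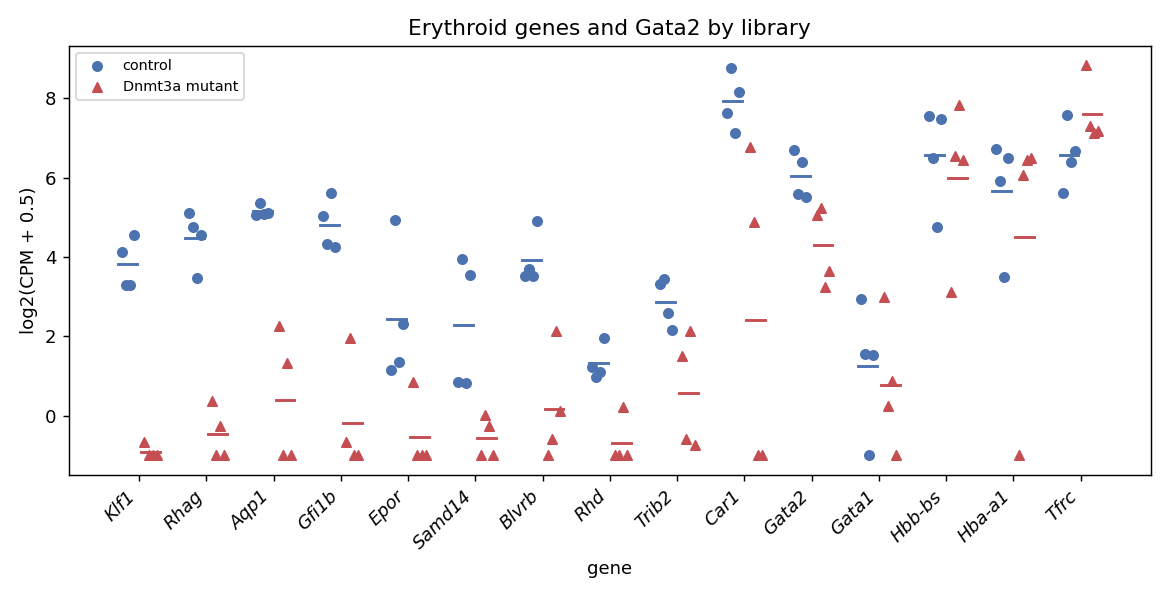
Level of 14 erythroid genes and Gata2 in each MPP3 library of aged recipients, as log2(CPM + 0.5), with 4 control and 4 mutant points per gene and a line at each mean. A value of 0 CPM lies at the lower edge. For the 10 genes from Klf1 to Car1 and for Gata2 all mutants lie below all controls, while Gata1, Hbb-bs, Hba-a1 and Tfrc overlap.

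Beyond the erythroid list, the regulator Gata2, which is active in stem cells, mast cells and early erythroid progenitors, was at 104, 48.0, 83.4 and 45.2 CPM in controls and 33.1, 37.4, 8.90 and 12.1 CPM in mutants, with no overlap (log2 difference -1.62, SE 0.64, edgeR adjusted p = 0.847). The mast cell, basophil and eosinophil list, in which Gata2 stands, had 9 of 18 genes in the fit, 5 of them lower, and a median of -0.01. The megakaryocyte list, the nearest relative of the erythroid path, had 17 of 24 genes in the fit, 11 lower and 6 higher, a median of -0.25 and no member without overlap. Of its abundant members, Fli1, Plek and Cd9 were at 79.2 to 120, 77.0 to 167 and 59.3 to 166 CPM in controls and at 106 to 166, 68.1 to 137 and 44.3 to 129 CPM in mutants.

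The erythroid pattern was not carried by 1 library. Leaving out each of the 8 libraries in turn gave list medians between -1.67 (without mutant replicate 1) and -0.73 (without mutant replicate 4). Between 20 and 25 of the 28 genes were lower. The labels name no sequencing pools, and 2 pools were inferred from library and sample sheet numbers in column names. Within inferred pool 1 (2 controls, 3 mutants) the median was -1.25 with 24 genes lower. Within inferred pool 2 (2 controls, 1 mutant) it was -1.61 with 20 lower. With the lone control of 2 recipients against the 4 mutants of 2 recipients each it was -1.51, with 26 lower.

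The promoters of 5 of these genes are shown because Klf1, Gfi1b, Epor, Rhag and Aqp1 are regulators, a receptor and membrane genes of the erythroid path whose CPM did not overlap, although the values of Epor lay close. Each is the stretch of 250 bases before the annotated start, 5′ to 3′ in the direction of the gene, from RefSeq on build GRCm38.p6: Klf1 at chr8:84901732-84901981 (plus strand), Rhag at chr17:40810899-40811148 (plus), Aqp1 at chr6:55336049-55336298 (plus), Gfi1b at chr2:28621983-28622232 (minus) and Epor at chr9:21963577-21963826 (minus). Capitals mark GATAA, the core bound by GATA factors, and CCACCC, a form of the CACCC box bound by Klf factors, on either strand (TTATC and GGGTGG on the opposite one).
Klf1: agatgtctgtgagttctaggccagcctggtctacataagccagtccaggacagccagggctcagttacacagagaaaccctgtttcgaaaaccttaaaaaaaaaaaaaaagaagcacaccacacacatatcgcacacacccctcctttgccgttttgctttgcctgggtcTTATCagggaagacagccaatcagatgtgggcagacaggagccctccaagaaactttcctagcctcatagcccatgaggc
Rhag: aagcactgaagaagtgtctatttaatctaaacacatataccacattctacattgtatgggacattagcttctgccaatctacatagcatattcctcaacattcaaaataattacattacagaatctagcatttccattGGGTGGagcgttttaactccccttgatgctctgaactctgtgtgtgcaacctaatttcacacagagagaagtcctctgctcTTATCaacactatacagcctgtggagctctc
Aqp1: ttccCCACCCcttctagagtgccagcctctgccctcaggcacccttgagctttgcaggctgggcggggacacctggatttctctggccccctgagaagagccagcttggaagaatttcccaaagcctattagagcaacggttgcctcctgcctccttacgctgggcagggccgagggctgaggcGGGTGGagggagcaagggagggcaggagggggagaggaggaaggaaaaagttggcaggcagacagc
Gfi1b: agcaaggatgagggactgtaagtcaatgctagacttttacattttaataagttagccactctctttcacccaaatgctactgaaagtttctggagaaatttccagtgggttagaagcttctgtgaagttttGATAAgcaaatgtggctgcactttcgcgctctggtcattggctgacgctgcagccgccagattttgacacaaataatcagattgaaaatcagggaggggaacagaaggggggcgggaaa
Epor: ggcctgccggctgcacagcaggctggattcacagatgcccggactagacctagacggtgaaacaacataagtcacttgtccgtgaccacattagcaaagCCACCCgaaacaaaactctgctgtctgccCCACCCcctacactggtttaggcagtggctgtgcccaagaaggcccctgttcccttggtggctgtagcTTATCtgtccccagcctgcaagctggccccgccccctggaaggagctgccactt
GATAA or its reverse complement was present in Klf1, Rhag, Gfi1b and Epor and not in Aqp1, and CCACCC in Rhag, Aqp1 and Epor. Of the erythroid genes in the fit, 23 had a promoter in the table, of which 12 (52.2%) held GATAA and 13 (56.5%) CCACCC, against 22.6% and 28.1% of 32851 promoters of the same length. These letters were chosen after the sequences were seen. CpG dinucleotides, the substrate of Dnmt3a, numbered 3, 1, 5, 5 and 6 in Klf1, Rhag, Aqp1, Gfi1b and Epor, and the median over all promoters was 6. A match is a description of the letters in this window, and no methylation was measured in these samples.

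On the higher side, the largest list difference was in the plasma cell list, genes of antibody-secreting cells. Of its 17 genes, 15 were in the fit, 14 were higher in mutants, and the median log2 difference was 2.01. In 5 of the 15 (33.3%, against 1.41% of all genes) every mutant exceeded every control: Igha, Igkc, Jchain, Xbp1 and Txndc5. An unadjusted p under 0.05 was reached by 6 of them, all higher (40.0%, against 3.27% of all genes). The list level, in log2(CPM + 2), was 5.58, 4.94, 4.71 and 5.21 in controls and 7.03, 5.96, 6.49 and 7.61 in mutants.

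Igha, the constant region of the IgA heavy chain, was at 1684, 1017, 1118 and 2039 CPM in controls and at 7879, 10126, 9179 and 27624 CPM in mutants, 9.35-fold higher in the fit (log2 difference 3.23, SE 1.08, edgeR adjusted p = 0.847). Igkc, the kappa light chain constant region, was at 2542, 687, 497 and 716 CPM in controls and 6702, 7656, 4379 and 14549 CPM in mutants. Jchain, which links IgA and IgM into polymers, was at 220, 161, 121 and 138 CPM in controls and 1441, 1282, 1272 and 1994 CPM in mutants (9.34-fold, log2 difference 3.22, SE 0.84, edgeR adjusted p = 0.765). Its lowest mutant, at 1272 CPM, lay well above its highest control, at 220 CPM.

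Xbp1, the transcription factor of the unfolded protein response that expands the secretory apparatus, was at 107, 80.7, 173 and 85.4 CPM in controls and 256, 259, 299 and 386 CPM in mutants (log2 difference 1.43, SE 0.35, edgeR adjusted p = 0.687). Txndc5, an endoplasmic reticulum disulfide isomerase, was at 22.2 to 67.8 CPM in controls and 81.5 to 185 CPM in mutants. Ube2j1, a ubiquitin-conjugating enzyme of endoplasmic reticulum degradation, was at 78.3, 34.0, 55.8 and 82.0 CPM in controls and 194, 189, 116 and 149 CPM in mutants (log2 difference 1.37, SE 0.36, edgeR adjusted p = 0.687). Irf4, which drives plasma cell differentiation and stands in the early lymphoid list, was at 31.6, 13.6, 13.4 and 25.3 CPM in controls and 65.3, 150, 236 and 116 CPM in mutants (log2 difference 2.76, SE 0.84, edgeR adjusted p = 0.847).

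Immunoglobulin genes together held 0.706, 0.283, 0.224 and 0.437% of counts in control replicates 1 to 4 and 2.54, 2.19, 1.67 and 4.79% in mutant replicates 1 to 4. The Wilson 95% intervals had a half-width of at most 0.0127 percentage points, which covers counting error only. In MPP3 of young recipients the share ranged from 0.205 to 2.38% in controls and from 0.251 to 5.46% in mutants, so there the genotypes overlapped. Defining plasma cell surface genes were low: Sdc1, which encodes CD138, was at 0 to 5.83 CPM in controls and 3.19 to 27.6 CPM in mutants, and Tnfrsf17 was at 0 in 7 of 8 libraries and 2.40 CPM in mutant replicate 4. The part of mature antibody-secreting cells or of their free RNA in these values was not tested.

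The B cell list showed 18 of 19 genes in the fit higher in mutants, with a median log2 difference of 1.54. An unadjusted p under 0.05 was reached by 7, all higher (36.8%, against 3.27%), but only Cd79a, Pou2af1 and Fcer2a (15.8%, against 1.41%) did not overlap. Cd79a, a signalling chain of the B-cell receptor, was at 32.0, 50.3, 35.9 and 36.2 CPM in controls and 328, 70.9, 101 and 282 CPM in mutants (log2 difference 2.34, SE 0.57, edgeR adjusted p = 0.687). Pou2af1, the B-cell coactivator of octamer-binding factors, was at 80.9, 194, 84.4 and 69.4 CPM in controls and 1037, 343, 346 and 448 CPM in mutants (log2 difference 2.34, SE 0.58, edgeR adjusted p = 0.687). Fcer2a, which encodes CD23, was at 0.596 to 3.78 CPM in controls and 6.07 to 21.7 CPM in mutants.

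Genes of B-cell commitment were highest in mutant replicate 1. Ebf1, the factor that starts the B-cell program, was at 121, 204, 150 and 89.1 CPM in controls and 989, 165, 295 and 184 CPM in mutants. Blnk, a B-cell receptor adaptor, was at 6.26 to 60.1 CPM in controls and 491, 52.2, 102 and 97.5 CPM in mutants. Both overlap, and mutant replicate 2 lay inside the control range for each. For Ebf1 mutant replicate 4 lay inside that range too. Without mutant replicate 1 the median of the B cell list was 0.74, and over all 8 single-library omissions it lay between 0.74 and 1.80, with 16 to 18 genes higher. Within pool 1 it was 1.70 with 17 of 19 higher, and within pool 2 1.10 with 11 of 18 higher. The list level was 3.84 to 4.39 in controls and 6.14, 4.32, 4.88 and 5.10 in mutants, so that mutant replicate 2 overlapped the controls.

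The early lymphoid list gave a smaller difference in the same direction. All 30 genes were in the fit, 23 were higher, the median was 0.58, and 7 had an unadjusted p under 0.05, all higher (23.3%, against 3.27%), with Irf4 the only member without overlap. Rag1, of the recombinase that rearranges antigen receptor genes, was at 1.73 to 26.3 CPM in controls and 169, 17.7, 54.8 and 32.3 CPM in mutants, and Dntt, which adds bases at the joins, at 32.7 to 85.0 CPM and 386, 35.7, 135 and 158 CPM. Foxo1, a factor upstream of the recombinase genes, was at 35.5 to 60.3 CPM in controls and 452, 48.4, 130 and 89.2 CPM in mutants. Ikzf3 was at 0 to 6.06 CPM in controls and 75, 4.38, 12.9 and 46.9 CPM in mutants. Without mutant replicate 1 the median of the list was 0.22, without mutant replicate 3 it was 0.93, and without control replicate 1 it was 1.01. In Rag1, Dntt, Foxo1 and Ikzf3 mutant replicate 2 lay within the control range and the other 3 mutants above it. Abundant members with broad expression overlapped: Ikzf1 was at 347 to 431 CPM in controls and 273 to 682 CPM in mutants, Bcl11a at 135 to 198 CPM and 98.3 to 370 CPM, and Tcf4 at 102 to 172 CPM and 122 to 589 CPM. The log2 difference of Tcf4 was 1.01 (SE 0.39, edgeR adjusted p = 0.847).

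The monocyte, macrophage and dendritic cell list holds genes that B cells also make. Cd74, the invariant chain of MHC class II, was at 198, 41.8, 84.6 and 121 CPM in controls and 815, 436, 478 and 593 CPM in mutants (log2 difference 2.38, SE 0.54, edgeR adjusted p = 0.687). H2-Aa was at 30.9 to 45.2 CPM in controls and 169, 47.5, 62.5 and 59.4 CPM in mutants, without overlap, and H2-Ab1 at 19.7 to 73.3 CPM and 54.9 to 107 CPM, with overlap. The list as a whole was mixed, with 9 of 17 genes in the fit higher and 8 lower and a median of 0.44, which was -0.21 without mutant replicate 4 and -0.03 without mutant replicate 2. Ccr2, a chemokine receptor of monocytes, was at 20.6 to 118 CPM in controls and 8.75 to 65.3 CPM in mutants.

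**Figure D2:**
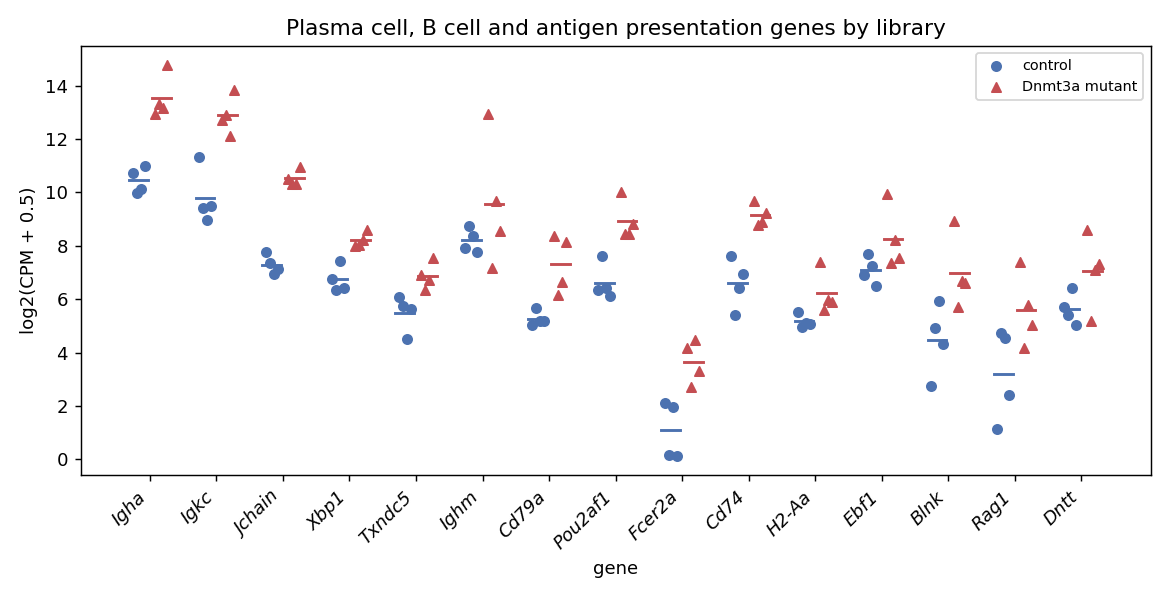
Level of plasma cell, B cell, antigen presentation and early lymphoid genes in each MPP3 library of aged recipients, as log2(CPM + 0.5), with 4 control and 4 mutant points per gene and a line at each mean. Igha, Igkc, Jchain, Xbp1, Txndc5, Cd79a, Pou2af1, Fcer2a, Cd74 and H2-Aa do not overlap, whereas Ighm, Ebf1, Blnk, Rag1 and Dntt do, with mutant replicate 1 highest.

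Of the 23 genes of the T and NK cell list only 12 were in the fit, 9 of them higher, with a median of 1.24. Lck, a kinase of the T-cell receptor, was at 0 to 3.56 CPM in controls and 5.71 to 21.1 CPM in mutants. Cd247, a T-cell receptor chain that NK cells also make, was at 13.3 to 29.6 CPM in controls and 31.1 to 39.5 CPM in mutants. Il2rb was at 0 to 0.108 CPM in controls and 0.337 to 3.40 CPM in mutants. Without mutant replicate 2 the median was 0.62, and without mutant replicate 3 it was 0.80. Lck, Cd247 and Il2rb did not overlap (25%, against 1.41% of all genes), but the defining T-cell genes Cd3e and Cd3g were at 0 in all 8 libraries. The genes in the fit numbered 10, 11 and 11 without mutant replicates 1, 2 and 3 in turn, and 12 without any 1 control. Some members thus passed the low-count filter through the mutants, where they are high. The share without overlap, the count of higher genes and the median are partly set by that filter.

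Myeloid genes, the main output of MPP3, did not differ in a common direction beyond the spread. The myeloid progenitor list had all 30 genes in the fit, 20 higher and 10 lower, and a median of 0.37, which was -0.19 without mutant replicate 4. Mpo, the myeloperoxidase of primary granules and the most abundant gene of the list, was at 7483, 13529, 8784 and 19989 CPM in controls and 8496, 7804, 16611 and 37944 CPM in mutants. Elane, neutrophil elastase, was at 635 to 1702 CPM in controls and 780 to 6735 CPM in mutants. Both overlapped, and mutant replicate 4 was highest for both, as it was for Prtn3 (1148 CPM) and Ctsg (820 CPM). Gfi1, a repressor that directs progenitors to granulocytes, was the 1 higher member without overlap (3.33% of the list, against 1.41% of all genes), at 28.9, 10.8, 18.3 and 21.3 CPM in controls and 32.7, 82.4, 41.8 and 120 CPM in mutants (log2 difference 1.80, SE 0.54, edgeR adjusted p = 0.847).

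Csf2rb2, the beta chain of the mouse interleukin-3 receptor, was the 1 lower member without overlap (3.33%, against 2.16% of all genes). It was at 26.9, 28.6, 34.0 and 20.1 CPM in controls and 0.784, 2.36, 3.19 and 6.44 CPM in mutants (log2 difference -3.09, SE 0.81, edgeR adjusted p = 0.687). Its paralog Csf2rb, which is closely related in sequence and lies outside the rule for named genes, was at 90.9 ± 16.9 CPM in controls and 102.8 ± 53.2 CPM in mutants (SD, n = 4 each). Reads that fit both genes may have been split between them, and how this was handled is not given in the sources used here.

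Late neutrophil genes depended on 1 library. The mature neutrophil list had 16 of 20 genes in the fit, 14 higher and a median of 1.68, but without mutant replicate 4 the median was -1.24, and with limma voom it was -0.44. Ngp and Lcn2, of secondary granules, were at 338 and 245 CPM in mutant replicate 4, at 0 to 0.131 and 0 to 4.70 CPM in the other 3 mutants, and at 0.432 to 39.8 and 0.892 to 28.4 CPM in controls. Cxcr2, a chemokine receptor of neutrophils, and Anxa1, the annexin A1 gene, were at 31.5 to 83.5 and 44.4 to 60.1 CPM in controls and 39.3 to 74.1 and 38.8 to 135 CPM in mutants.

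The LT-HSC list, genes of long-term stem cells, also split the mutants. Of its 40 genes 34 were in the fit, 22 lower and 12 higher, with a median of -0.14. The list level was 4.37, 3.30, 3.52 and 3.73 in controls and 3.07, 4.12, 3.18 and 2.92 in mutants, so mutant replicate 2 lay among the controls and the other 3 mutants below all of them. Without mutant replicate 2 the median was -1.09. Hlf was at 274, 139, 203 and 99.2 CPM in controls and 241, 616, 127 and 68.0 CPM in mutants. Meis1 and Angpt1 were at 222 and 239 CPM in mutant replicate 2, at 24.6 to 122 and 16.3 to 70.9 CPM in the other mutants, and at 56.6 to 170 and 87.4 to 201 CPM in controls. Cd34, a progenitor surface protein gene, was at 432, 281, 229 and 144 CPM in controls and 74.5, 250, 123 and 61.2 CPM in mutants.

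**Figure D3:**
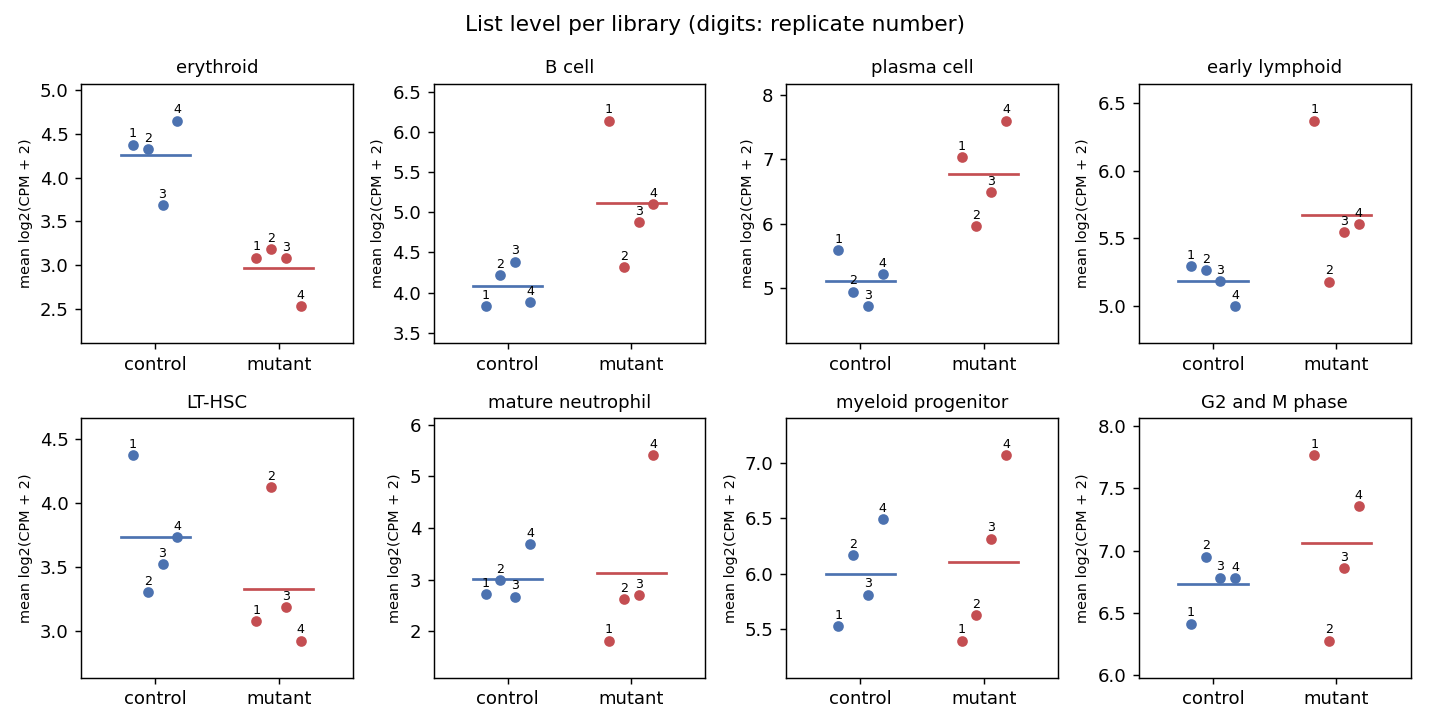
Mean level of 8 gene lists, in log2(CPM + 2), for each control and mutant MPP3 library of aged recipients, with lines at the group means and digits for the replicate. Erythroid levels of all mutants are below, and plasma cell levels above, those of all controls. Mutant replicate 1 is highest in the B cell, early lymphoid and G2 and M phase lists, replicate 2 among mutants in the LT-HSC list, and replicate 4 in both neutrophil-path lists.

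Proliferation genes overlapped between the genotypes. Of 28 G2 and M phase genes 26 were higher, with a median of 0.44 and no member without overlap. The median was 0.16 without mutant replicate 1 and 0.67 without mutant replicate 2, and within pool 2 it was 0.088 with 15 genes higher. The list level, in log2(CPM + 2), was 6.41 to 6.95 in controls and 7.76, 6.28, 6.86 and 7.36 in mutants, so mutant replicate 2 lay below every control. Mki67, the proliferation antigen, was at 1574, 2091, 2026 and 1868 CPM in controls and 4237, 1240, 1840 and 2858 CPM in mutants, and Top2a and Kif11 were also highest in mutant replicate 1, at 2279 and 875 CPM. Of 28 S phase genes 17 were lower, with a median of -0.14. Pcna was at 206 to 256 CPM in controls and 218 to 371 CPM in mutants, and Mcm6 at 130 to 300 CPM and 113 to 322 CPM.

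The series title refers to TNF receptors. Tnfrsf1a, which encodes TNF receptor 1, was at 40.4, 30.6, 16.6 and 40.6 CPM in controls and 22.6, 5.05, 43.2 and 31.8 CPM in mutants (log2 difference -0.32, SE 0.60, edgeR adjusted p = 0.986). Tnfrsf1b, which encodes TNF receptor 2, was at 19.7, 24.1, 70.8 and 29.9 CPM in controls and 139, 18.5, 35.9 and 35 CPM in mutants (log2 difference 0.66, SE 0.61, edgeR adjusted p = 0.958). Tnf was at 6.21 to 27.9 CPM in controls and 1.85 to 33.7 CPM in mutants. Of 35 genes of TNF receptors and signalling in the fit, 16 were higher and 19 lower, the median was -0.14 and no member was without overlap. The list level, in log2(CPM + 2), was 4.81, 4.99, 5.04 and 4.91 in controls and 4.71, 4.61, 4.64 and 4.92 in mutants, so that replicates 1, 2 and 3 of the mutants lay below all controls and replicate 4 among them. Its abundant members Tab2, Cflar, Casp8 and Ikbkb overlapped.

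In the DNA methylation list, 6 of 16 genes were higher and 10 lower, with a median of -0.07. The maintenance methyltransferase Dnmt1 was at 212 to 394 CPM in controls and 207 to 398 CPM in mutants, and the demethylating dioxygenase genes Tet1, Tet2 and Tet3 overlapped. The interferon list had 15 of 38 genes higher and 23 lower, with a median of -0.16. Its Oas3, an antiviral synthetase, was at 17.1 to 21.9 CPM in controls and 3.66 to 15.7 CPM in mutants, the 1 member without overlap (2.63%, against 2.16% of all genes), while Ly6e, Samhd1, Ifitm3 and Sp100 overlapped. The immediate early list had 14 of 24 higher, with a median of 0.16. Ier3, a stress-response gene, was at 21.6 to 29.4 CPM in controls and 0 to 17.5 CPM in mutants, and Egr3 had 11 counts in all controls and none in mutants, at least 2.99-fold lower against a floor of 3 counts over the group. Ier3 and Egr3 were the 2 members without overlap (8.33%, against 2.16%). Fos, Fosb, Jun and Zfp36 overlapped.

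**Figure D4:**
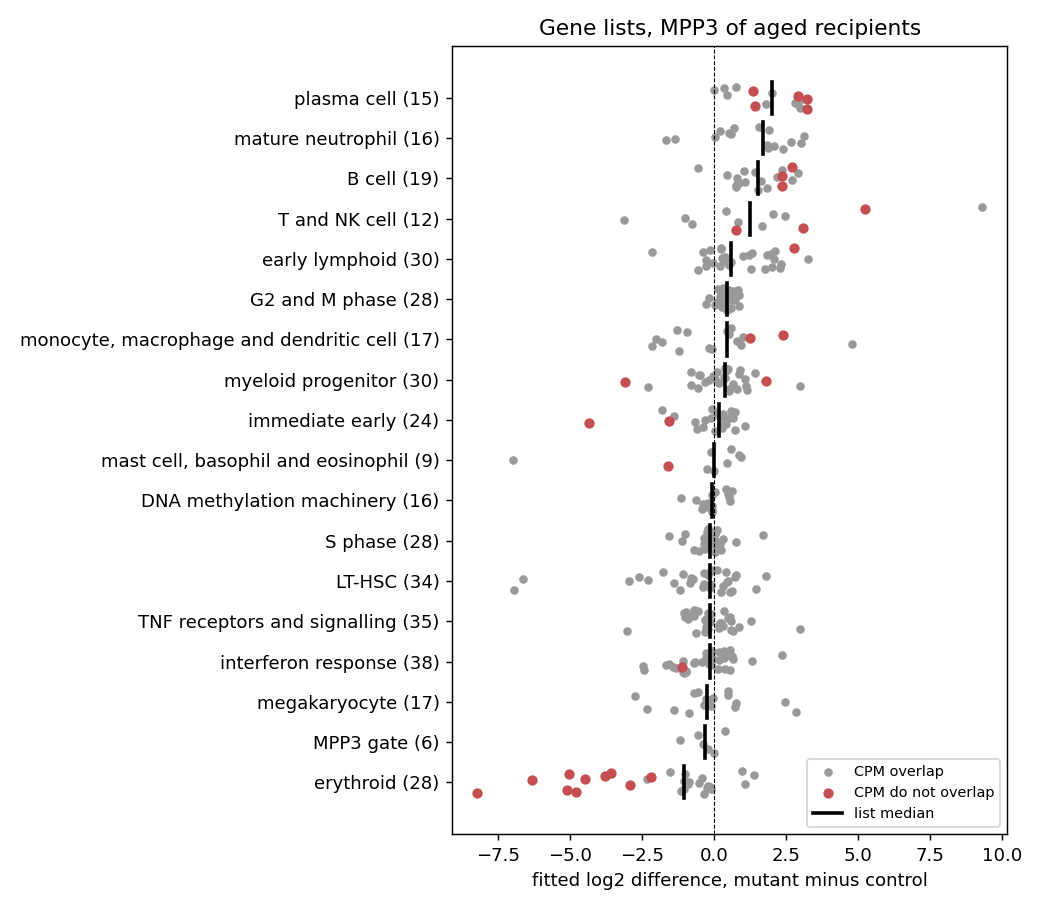
Fitted log2 difference between Dnmt3a-mutant and control MPP3 of aged recipients for each gene of 18 lists, with the number of genes in the fit in brackets. Black bars are list medians, from -1.04 in the erythroid list to 2.01 in the plasma cell list, and red points are genes whose CPM do not overlap between the genotypes. Values of genes with almost no counts in 1 group, such as Klf1, depend on the fit's prior.

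Over all genes, those with a mean of at least 10 CPM and no overlap were ranked by unadjusted p, and the first 12 in each direction included 1 predicted gene each that is not named. On the higher side, Cacna1e, a voltage-gated calcium channel subunit, came first, at 0.324, 0, 0.255 and 0.497 CPM in controls and 37.4, 19.4, 13.6 and 18.2 CPM in mutants (log2 difference 6.28, SE 1.21, edgeR adjusted p = 0.687). Rasgrp3, an activator of Ras in B cells, was at 1.15 to 2.10 CPM in controls and 43.0, 11.8, 28.7 and 48.9 CPM in mutants. Prkcb, a protein kinase C of B-cell receptor signalling, was at 3.46 to 17.3 CPM in controls and 20.3 to 109 CPM in mutants. Hif1a, the oxygen-regulated transcription factor, was at 33.0, 58.3, 26.9 and 50.6 CPM in controls and 205, 194, 76.3 and 86.6 CPM in mutants (log2 difference 1.73, SE 0.43, edgeR adjusted p = 0.687). Rhbdf2, an inactive rhomboid needed to mature the protease that sheds TNF, was at 4.64, 13.5, 7.51 and 12.1 CPM in controls and 30.7, 93.8, 68.7 and 35.7 CPM in mutants (log2 difference 2.60, SE 0.61, edgeR adjusted p = 0.687). Zfp518a was at 68.6 to 84.0 CPM in controls and 130 to 229 CPM in mutants. The other 5 were Cd74, Xbp1, Cd79a, Pou2af1 and Ube2j1.

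On the lower side, Stx17, a SNARE protein of autophagosome fusion, came first, at 26.5, 42.1, 58.1 and 41.9 CPM in controls and 8.49, 11.8, 6.89 and 13.8 CPM in mutants (log2 difference -2.04, SE 0.47, edgeR adjusted p = 0.687). Myo1d, an unconventional myosin, was at 10.3 to 33.2 CPM in controls and 0 to 0.674 CPM in mutants, and Tmem56 at 12.5 to 33.5 CPM and 0 to 0.840 CPM. Slc5a2, a sodium-glucose cotransporter, was at 6.42 to 37.3 CPM in controls and 0 to 3.46 CPM in mutants. Aldh2, which clears aldehydes in blood progenitors, was at 120, 38.2, 65.1 and 80.5 CPM in controls and 26.3, 32.0, 18.1 and 34.9 CPM in mutants (log2 difference -1.45, SE 0.39, edgeR adjusted p = 0.687). Specc1 was at 44.2 to 94.4 CPM and 5.36 to 29.7 CPM, Skiv2l, a helicase of RNA decay, at 23.9 to 51.9 CPM and 11.1 to 19.7 CPM, and Abcf1, a ribosome-associated ATPase, at 80.5 to 220 CPM and 30.8 to 72.6 CPM. Stmn1, a microtubule regulator, was at 149 to 243 CPM in controls and 85.3 to 144 CPM in mutants. Rhag and Csf2rb2 complete the 11.

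To see whether recipient age altered these differences, the same genotype difference was taken in MPP3 of young recipients (4 control and 3 mutant libraries) and the interaction was tested. No gene was called (0 of 13933, 0%), the smallest adjusted p was 0.861 by edgeR, 752 genes (5.40%) had an unadjusted p under 0.05, and DESeq2 called 41 (0.294%). All young controls were in inferred pool 2, and libraries of young recipients name 1 animal each, so age cannot be told apart from these. The plasma cell median was 0.88 in young recipients against 2.01 in aged, and the B cell median 1.36 against 1.54. The erythroid median was -0.10 in young recipients against -1.04 in aged, and 4 of the 28 genes had an unadjusted interaction p under 0.05. The T and NK cell median was -0.97 in young recipients against 1.24 in aged, with 4 of 12 genes at an unadjusted interaction p under 0.05. Which genes of that list were in the fit depended partly on the aged mutants. The mature neutrophil median was -0.29 against 1.68, with 2 of 16 genes, and the value in aged recipients turned sign without mutant replicate 4.

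For single erythroid genes the difference between ages was wide but uncertain. Rhag was at 2.85, 6.27, 7.15 and 11.9 CPM in young controls and 29.4, 0.121 and 0.127 CPM in young mutants, and the log2 interaction was -6.81 (SE 2.02; by edgeR, adjusted p = 0.870). Aqp1 was at 0 to 7.60 CPM in young controls and 23.5, 0 and 7.01 CPM in young mutants (interaction -5.85, SE 2.14, edgeR adjusted p = 0.886). In both, young mutant replicate 1 was above all young controls, whereas all aged mutants were below all aged controls. Klf1 was at 0 to 14.1 CPM in young controls and 0 to 5.99 CPM in young mutants.

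By the rule for the interaction, 3 genes in each direction are given. Hif1a was at 51.0 to 153 CPM in young controls and 46.6 to 65.4 CPM in young mutants, so its difference was -0.69 in young and 1.73 in aged recipients (interaction 2.42, SE 0.63, edgeR adjusted p = 0.870). Cdkn2d, a cell cycle inhibitor, was at 2.80 to 8.53 CPM in aged controls and 7.92 to 43.2 CPM in aged mutants, and at 9.53 to 97.8 CPM in young controls and 2.94 to 6.42 CPM in young mutants. Fam129b was at 6.75 to 16.6 CPM in aged controls and 3.70 to 25.9 CPM in aged mutants, and its interaction came from young libraries, at 3.42 to 101 CPM in controls and 0.384 to 0.637 CPM in mutants. Stk24, a kinase of the MST family, had the smallest interaction p of all these, with 150 to 260 CPM in aged controls and 111 to 217 CPM in aged mutants against 85.5 to 154 CPM in young controls and 322 to 524 CPM in young mutants (interaction -2.03, SE 0.41, edgeR adjusted p = 0.861). Rabggta was at 7.55 to 60.5 CPM in aged controls and 7.73 to 23.8 CPM in aged mutants, and at 7.24 to 12.8 CPM in young controls and 44.8 to 103 CPM in young mutants. Igkv4-72, an antibody variable segment, was at 7.23 CPM in aged control replicate 1 and at 0 in the other 7 aged libraries, and at 113, 0 and 65.1 CPM in young mutants.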

How the data were processed

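Polyadenylated RNA of 28 libraries was counted per gene, and the deposited counts are whole numbers that the authors did not normalize. The submitters' processing notes name RSEM 1.2.12, Bowtie2 2.2.0, SAMtools 0.1.18, edgeR 3.5.3 and build GRCm38, without role or order, and the strand setting and any rounding are not given in the sources used here. Columns were matched to samples by title, and 0 belonged to no sample. Gene symbols matched 96.6% of identifiers. Of 453 list genes, 3 had no identifier of that symbol.

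The 15 MPP3 libraries were fitted together in edgeR 4.0.16 (R 4.3.3) with filterByExpr, TMM scaling, 1 coefficient per group, glmQLFit (robust) and glmQLFTest, 2-sided, with Benjamini-Hochberg adjustment over 13933 genes and a threshold of 0.05. CPM are counts per mega counts after scaling. Alternatives used limma 3.58.1 voom, DESeq2 1.42.0, other scalings, filters and sample choices. The code was tested on simulated data. The 2 pools were inferred from library numbers in column names. Pool 1 held control replicates 1 and 2 and mutant replicates 1, 2 and 4.

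The comparison and the 18 lists were chosen with earlier results of these data known, so lists carry no test. Named were Dnmt3a, Tnf, its receptors, gate genes, the 4 most abundant members of each list, members without overlap, the 12 non-overlapping genes of smallest p in each direction at a mean of at least 10 CPM, and 3 interaction genes per direction, while predicted genes were only counted. Named genes that the text gives one by one are a part of these. Some genes under this rule are not reported here.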

Additional observations from a re-analysis of the deposited data

Results flagged for a closer look

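In groups of 4 libraries, a library was singled out when its gap to the nearest other library, divided by the range of the group, exceeded Dixon's 95% critical value for 4 samples. This held for 21 of 150 groups tested. For normally distributed values chance gives about 1 in 20. Many of the groups are CPM that are skewed or near 0, so the 2 rates cannot be compared. Klf1 in mutants and Il2rb in controls had 1 count in 1 library and 0 in the others, which always exceeds the critical value. Among list levels, in log2(CPM + 2), the erythroid list was lowest in mutant replicate 4 (2.54), the monocyte, macrophage and dendritic cell list was lowest in control replicate 4 (3.60), and the DNA methylation list was highest in mutant replicate 1 (6.45).

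Among genes in mutants, the highest library stood apart for Tnfrsf1b (138.6 CPM), Pou2af1 (1037 CPM), Klf1 (0.131 CPM), Epor (1.31 CPM), H2-Aa (168.7 CPM) and Stmn1 (143.6 CPM), all in replicate 1, for Gfi1b in replicate 2 (3.37 CPM), for Blvrb (3.86 CPM) and Rhd (0.672 CPM) in replicate 3, and for Igha in replicate 4 (27624 CPM). Among genes in controls it stood apart for Il2rb (0.108 CPM), Igkc (2542 CPM) and Igkv4-72 (7.23 CPM) in replicate 1, for Pou2af1 (194 CPM), Epor (30.0 CPM) and Rasgrp3 (2.10 CPM) in replicate 2, for Abcf1 in replicate 3 (220 CPM) and for Blvrb in replicate 4 (29.6 CPM).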

How the results depend on the processing

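The medians of the plasma cell, B cell and early lymphoid lists stayed positive, and those of the erythroid and S phase lists negative, in all 22 alternatives. Of the 54 genes whose fitted difference was followed across the alternatives, some of them given above as CPM only, 7 turned sign in at least 1 alternative. Calls numbered 56 with DESeq2 (41 for the interaction), 3 on the 8 libraries alone, 154 within pool 2, 1 without mutant replicates 1 and 2 together, and 1 with the lone control of 2 recipients. Genes at an unadjusted p under 0.05 numbered 1578 without a filter, 523 at a mean of at least 50 counts, 425 within pool 1, 1222 within pool 2 and 230 with the lone control. Within pool 2, which holds 1 mutant assumed to vary like the other libraries, medians were 0.19 (early lymphoid), 0.30 (T and NK cell), -0.76 (megakaryocyte), -1.61 (erythroid), -2.12 (mature neutrophil), -1.73 (mast cell), -0.84 (LT-HSC), -0.45 (S phase), -0.31 (TNF), -0.30 (immediate early) and 0.0059 (gate), with Tnfrsf1a at 0.59 and Tnfrsf1b at -0.48. Within pool 1 they were 0.033 (TNF), with Dnmt3a at 0.14 and Fam129b at 0.049. With pool as a covariate the plasma cell median was 1.35. With limma voom medians were -1.68 (erythroid), -0.44 (mature neutrophil), -0.16 (monocyte), -1.12 (mast cell) and -0.84 (LT-HSC). On the 8 libraries alone the T and NK cell median was 0.73.

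Chosen after seeing the data, leaving out mutant replicates 1 and 2 together gave 0.16 (early lymphoid), 0.95 (B cell), 0.60 (T and NK cell), -1.96 (erythroid), 0.21 (monocyte), -0.72 (mast cell), -1.30 (LT-HSC), -0.38 (S phase) and -0.25 (immediate early), with Tnfrsf1a at 0.23 and Tnfrsf1b at -0.024. The lone control, also chosen afterwards, gave 1.02 (early lymphoid), 2.23 (B cell), 0.54 (T and NK cell), 0.22 (megakaryocyte), -1.51 (erythroid), 0.79 (monocyte), 0.062 (DNA methylation) and 0.32 (gate), with Stk24 at 0.18, Rabggta at 1.15 and Igkv4-72 at 0.

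Leaving out 1 library at a time, calls ranged from 0 to 1, and medians from 0.22 to 1.01 (early lymphoid), 0.74 to 1.80 (B cell), 0.62 to 1.85 (T and NK cell), -1.67 to -0.73 (erythroid), -1.24 to 2.09 (mature neutrophil), -0.21 to 0.48 (monocyte), -0.82 to 0.40 (mast cell), 1.71 to 2.83 (plasma cell), -1.09 to 0.0023 (LT-HSC), -0.40 to -0.021 (S phase), -0.14 to 0.075 (DNA methylation) and -0.23 to 0.19 (immediate early). Dnmt3a ranged from -0.21 to 0.12, Tnfrsf1a from -0.69 to 0.022, Tnfrsf1b from -0.27 to 1.2 and Fam129b from -0.75 to 0.22. The cause of these shifts was not tested. Equal replicate numbers stand for different animals, and correlations of same-numbered libraries were -0.057, -0.040, 0.037 and 0.14, so the numbers do not pair the samples. The replicate block gave 0 calls, 672 genes at an unadjusted p under 0.05, and medians of 1.54 (T and NK cell), -0.29 (mature neutrophil), 0.24 (monocyte) and -0.92 (LT-HSC). Depth limits the genes at 0 or a few counts in mutants, such as Klf1, Epor and Rhd, whose fitted differences depend on the prior.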

Other observations

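Of the 56 genes called by DESeq2, 5 that the comparison did not name were picked here after their values were seen, and edgeR called none of the 56 on the 15 MPP3 libraries. Syvn1, a ubiquitin ligase of endoplasmic reticulum degradation, was at 42.6 ± 23.9 CPM in controls and 144.1 ± 64.4 CPM in mutants (SD, n = 4 each), and its log2 difference by DESeq2 was 1.74 (SE 0.43, adjusted p = 0.0155). Bank1, a B-cell scaffold protein, was at 7.01 ± 6.17 CPM in controls and 67.4 ± 89.0 CPM in mutants (DESeq2, adjusted p = 0.0437). Grap2, an adaptor of T-cell receptor signalling, was at 0.105 ± 0.210 CPM in controls and 10.8 ± 7.43 CPM in mutants (DESeq2, adjusted p = 0.0366). Add2, an adducin of the red cell membrane skeleton, was at 17.3 ± 23.1 CPM in controls and 0 in every mutant library. Cd59a, which protects red cells from complement, was at 10.1 ± 6.60 CPM in controls and also 0 in every mutant library. The log2 differences by DESeq2 were -9.44 for Add2 and -23.5 for Cd59a. With 0 in every mutant library, these cannot be read as sizes.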
